A study of Homo sapiens with 3 samples.

Results

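Stop codons followed by few ribosome reads in the presence of G418 were collected from ribosome profiling of HEK293T cells. These cells derive from human embryonic kidney and express SV40 large T antigen (not examined here). In ribosome profiling, mRNA stretches shielded from nuclease by a ribosome are sequenced, so that reads beyond a stop codon count ribosomes that went on translating. Few such reads need not mean that ribosomes ended translation at that stop codon. A listed stop codon may not be the one that most ribosomes of its gene reach. The 2 groups were compared over 3 libraries. Untreated A and Untreated B came from cells without drug (0 µg/mL), and G418 A came from cells kept for 24 h in 500 µg/mL G418. The G418 group analysed here had 1 library, so no difference between conditions was tested and G418 values carry counting error only. Both groups were the same cell line, and the labels name no genotype, batch or pooling.

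Readthrough was measured as the ribosome readthrough score (RRTS), the density of reads between the normal termination codon (NTC) and the next in-frame stop codon divided by the density over the coding sequence (CDS). The region starts 6 nt beyond the NTC. RRTS is given below in percent of CDS density. Expected readthrough reads are the reads that the region would have held at the density of the CDS. Of 8812 transcripts listed in all 3 libraries, 5680 passed the minimums for the mean CDS count over libraries (the lowest eligible transcript had 129) and for region length. The length minimum was 18 nt. Minimum lengths here and below were set before the first 6 nt are left out, so a counted region can be shorter (12 nt for PGK1). Of the 5680, 2117 had at least 30 expected reads in G418 A. These 2117 are called eligible. The members are the 332 eligible transcripts with an RRTS below 0.05 (5%) in G418 A, 15.7% of those eligible, and the other 1785 are called the rest. The members were therefore selected on measured G418 reads, and their low G418 values are a description and not a result.

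Termination in human cells is carried out by eRF1, which recognises the 3 stop codons in the ribosomal A site, and by the GTPase eRF3. G418 is an aminoglycoside that binds the decoding centre of the ribosome and lowers its accuracy, so that a near-cognate tRNA can be accepted at a stop codon. How often this happens is known to depend on the stop codon and on the nucleotides after it, of which the first is called +4.

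Of the members that share both stop codon and readthrough region with the MANE Select transcript, 6 had most expected readthrough reads, counted over the annotated region. For HIST2H3C and HIST2H3A that number depends on a long annotated region, a limit given further on. The sequences of the 6 around the NTC are shown first. Each holds 15 nt before the stop codon, the stop codon with the +4 nucleotide in capitals, and the next 11 nt, read 5′ to 3′ on the mRNA strand in DNA letters from GENCODE transcripts on GRCh38. The MANE Select transcript is the isoform that the annotation groups chose as representative. Members with as many expected reads but another region or no MANE Select comparison, such as GAPDH (UAAG) and HMGN2 (UGAA), are described further on without a sequence.
HIST2H3C: cgtggagagcgggctTAAGaagtggcggtt
HIST2H3A: cgtggagagcgggctTAAGaagtggcggtt
RPL23A: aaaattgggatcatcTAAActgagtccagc
RPL41: aggcagaggtccaagTAAAccgctagcttg
ENO1: aaccccttggccaagTAAGctgtgggcagg
BCAP31: gacaagaaggaagagTAAGggcctccttcc
These 6 carry UAA followed by a purine. The stop codons lie at chr1:149840747-149840749 (HIST2H3C, minus strand), chr1:149853063-149853065 (HIST2H3A, plus strand), chr17:28723879-28723881 (RPL23A, plus strand), chr12:56117522-56117524 (RPL41, plus strand), chr1:8861360-8861362 (ENO1, minus strand) and chrX:153700937-153700939 (BCAP31, minus strand). Each lies in the last exon of its transcript, which for the HIST2H3 genes is the only exon. Beside them stands a stop codon of the rest with the signal UGAC, at the MANE Select stop and chosen after its values were seen.
DYNLT1: ttcggactgtctattTGACctgcagtccag
The stop codon of the dynein light chain gene DYNLT1 is at chr6:158636827-158636829 on the minus strand. RRTS of DYNLT1 in G418 A was 35.5% (186 reads of 524 expected).

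The number of expected reads was close in members and rest. The median member had 72.8 expected readthrough reads in G418 A and the median transcript of the rest 73.7. Of 332 members, 130 had 0 readthrough reads in G418 A and 71 had 1 read. The exact Poisson 95% interval of RRTS lay wholly below 5% for 85 members, whereas for 345 transcripts of the rest the interval reached below 5%, so that many assignments near the limit were within counting error. All intervals given here cover counting error only. Just inside the limit were SNRPG at 4.962% (9 reads), RNF5 at 4.956% (2 reads) and CCNC at 4.956% (12 reads). Just outside were SRI at 5% (12 reads), ACVR1B at 5.017% (2 reads) and TLN1 at 5.02% (6 reads).

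**Figure D1:**
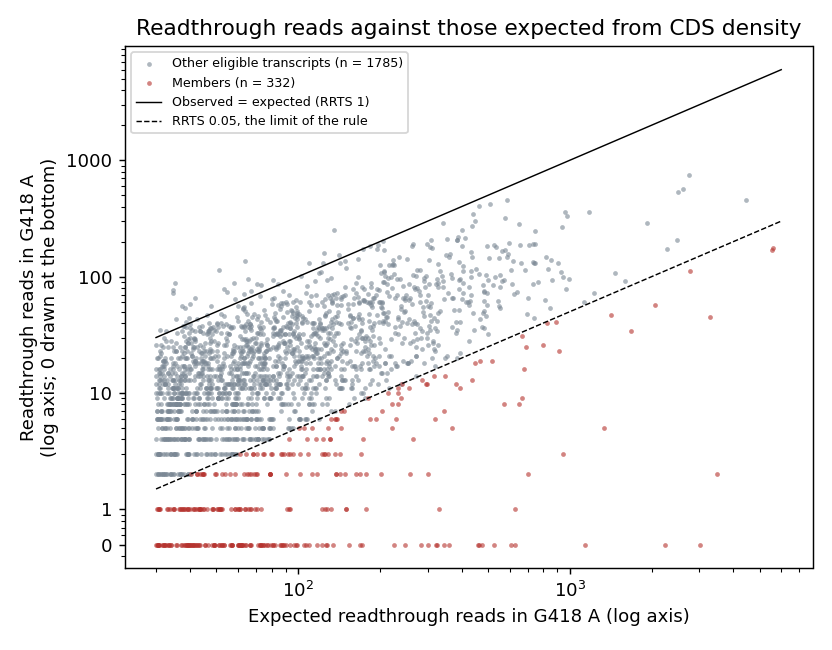
Readthrough reads in G418 A (vertical log axis, 0 drawn at the bottom) against the reads expected from CDS density (horizontal log axis), 1 point per eligible transcript. The 332 members lie below the dashed line at an RRTS of 0.05 by the rule, and they extend over the whole range of expected reads up to 5617.

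Among members at the MANE Select stop, the replication-dependent histone H3 genes HIST2H3C and HIST2H3A had most expected reads. HIST2H3C had 3 reads (0.0657%) and 12 reads (0.112%) in the Untreated A and B libraries and 176 reads in G418 A (3.13%, interval 2.69 to 3.63). HIST2H3A had 3, 10 and 168 reads, or 0.0654%, 0.0916% and 3.02%. The windows printed for both are identical, reads of such copies cannot be assigned with certainty, and the pair should be read as a single measurement. Both are annotated with a readthrough region of 582 nt in a 3′UTR of 1203 nt. Past this region they had 0 reads in every library. The paper states that histone mRNAs carry no poly(A) tail and end in a hairpin. Whether these mRNAs extend over the whole annotated region was not tested. If they end sooner, the expected reads are too many and the RRTS of the pair is too low.

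RPL23A and RPL41 encode proteins of the large ribosomal subunit. RPL23A had 2, 0 and 45 readthrough reads in Untreated A, Untreated B and G418 A, which are RRTS values of 0.0897%, 0 and 1.37%. RPL41 had 11, 5 and 57 reads, or 0.517%, 0.136% and 2.77%. In both, G418 A was above both untreated libraries, which for RPL41 differed among themselves more than 3-fold in RRTS (0.326% ± 0.269, SD, n = 2).

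ENO1 encodes the glycolytic enzyme enolase and BCAP31 a membrane protein of the endoplasmic reticulum. ENO1 had 3, 7 and 47 reads, or 0.177%, 0.264% and 3.31%. BCAP31 had 0 reads in both untreated libraries, where 3 reads would have been 0.339% in Untreated A and 0.219% in Untreated B, and 5 reads of 1333 expected in G418 A (0.375%, interval 0.122 to 0.875). Of the MANE Select members printed above, BCAP31 had the lowest RRTS in G418 A, and its interval did not reach that of any of the other 5.

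Another kind of member had its listed stop codon at another place than the MANE Select transcript. The study kept for each gene the transcript with the 3′-most stop codon. For 318 members and 1746 of the rest this stop could be compared with that of the MANE Select transcript in a later release of the same annotation. It lay elsewhere in 116 of 318 members (36.5%) and in 65 of 1746 of the rest (3.72%). Read the other way, 64.1% of the 181 eligible transcripts with another stop than MANE Select were members (Wilson 95% interval 56.9 to 70.7), against 10.2% of the 1804 with the same stop and the same readthrough region (8.89 to 11.7). In a logistic regression with stop codon and +4 nucleotide, the odds of membership were 20.9 times as high where the stop differed (95% interval 14.4 to 30.2, Wald p = 4.691e-58, n = 2064 transcripts), a test added after the values had been seen. Of the 130 members with 0 reads in G418 A, 77 had another stop than MANE Select, 45 the same stop, and 8 could not be compared. For these 116 members a low RRTS need not describe a stop codon that most ribosomes of the gene reach, and how many ribosomes stopped elsewhere was not tested.

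**Figure D2:**
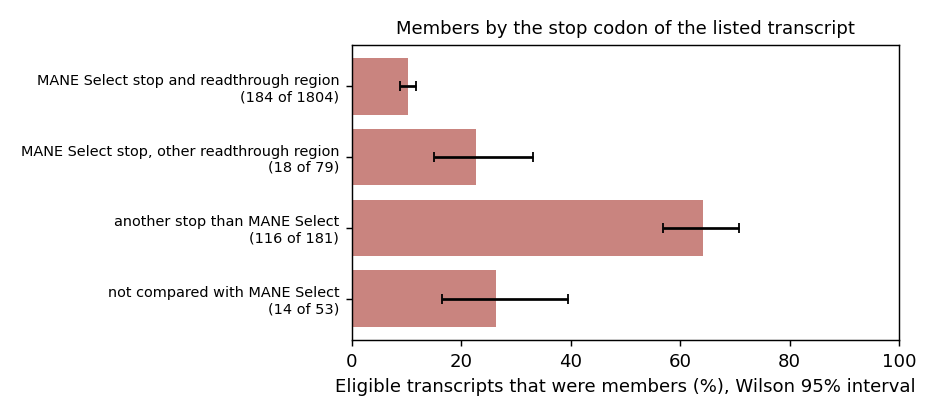
Share of eligible transcripts that were members (bars, percent; whiskers, Wilson 95% interval) by whether the listed stop codon and readthrough region were those of the MANE Select transcript. The share was 64.1% where the stop differed and 10.2% where stop and region were the same.

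The 3 members of this kind with most expected reads encode ribosomal proteins, and their listed and MANE Select stop codons are shown in the same format to make plain that they are different sites.
RPL37A listed: tacaacagaatggaaTAACagcaaacaaca
RPL37A MANE Select: gagttgaaagaccagTAGAcgctcctctac
RPS24 listed: tctggtctgggccacTAATgtcactgccat
RPS24 MANE Select: ggtgctggcaaaaagTGAGctggagattgg
RPL31 listed: gtcgccaagagcccaTAAAgggagccctcc
RPL31 MANE Select: aatgtggatgagaacTAATcgctgatcgtc
All lie on plus strands. The listed stop of RPL37A was at chr2:216578931-216578933 and the MANE Select stop at chr2:216501402-216501404. Those of RPS24 were at chr10:78055008-78055010 and chr10:78040204-78040206, and those of RPL31 at chr2:101019036-101019038 and chr2:101006379-101006381.

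At its listed stop RPL37A had 1 read in Untreated A, 0 in Untreated B and 2 of 3468 expected in G418 A (0.0577%, interval 0.00698 to 0.208). RPS24 had 1, 0 and 0 reads, and 0 of 3005 expected reads in G418 A allows an RRTS of up to 0.0998% (3 reads). RPL31 had 0, 1 and 0 reads, which allows up to 0.134% in G418 A. In each of the 3 the interval in G418 A overlapped those of both untreated libraries.

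The next members with 0 reads in G418 A by expected reads were STMN1, SNRPD3 and HIST2H2BF, which encode the microtubule regulator stathmin, a core protein of spliceosomal snRNPs and a histone H2B. STMN1 had 0, 3 and 0 reads in Untreated A, Untreated B and G418 A, with a limit of 0.264% in G418 A. SNRPD3 and HIST2H2BF had 0 reads in every library, with limits in G418 A of 0.477% and 0.495%. The listed stop of each differed from the MANE Select stop.

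Members with 0 reads at the MANE Select stop and region numbered 40. EIF5AL1, a copy of the translation factor gene EIF5A, had most expected reads among these (0 of 477 in G418 A, up to 0.629%), and 0 in both untreated libraries. It has no introns, and reads of such copies are assigned with uncertainty. MRPL52, of the mitochondrial ribosome, had 1, 1 and 0 reads (0.656%, 0.400% and a limit of 1.77%).

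**Figure D3:**
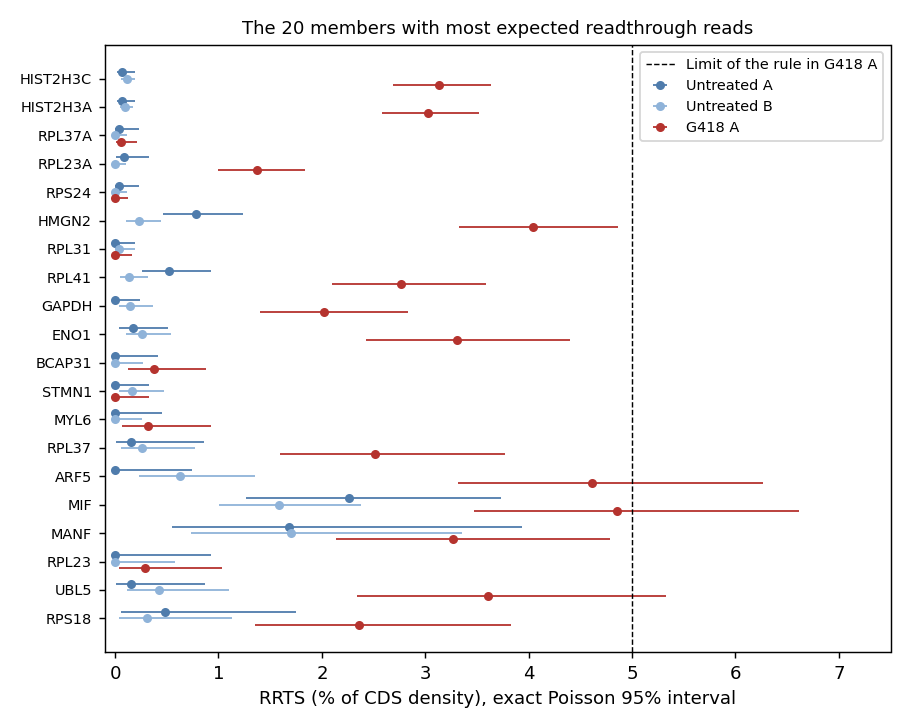
RRTS in percent of CDS density in each library for the 20 members with most expected readthrough reads in G418 A, from most at the top; whiskers are exact Poisson 95% intervals and the dashed line is the limit of the rule. RPS24, RPL31 and STMN1 had 0 reads in G418 A and RPL37A 2, with intervals that reach 0.123%, 0.164%, 0.325% and 0.208%, whereas MIF (4.86%) and ARF5 (4.62%) have intervals that cross the line.

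The untreated libraries were not used to choose members by readthrough, so their readthrough reads are separate from those of the rule. Their RRTS is not independent in every way, since listed transcript, annotated region and CDS were the same in all 3 libraries. A listed stop codon that few ribosomes reach, or a region absent from the mRNA, could lower RRTS in every library. How far this shaped the values below was not tested. Pooled over the 332 members, 198 readthrough reads were seen of 61046 expected in Untreated A (0.324%, interval 0.281 to 0.373) and 350 of 105426 in Untreated B (0.332%, 0.298 to 0.369). The rest had 1.60% in Untreated A and 1.27% in Untreated B. The members thus had a lower RRTS than the rest without drug too. In a quasi-Poisson regression with expected reads as offset and errors over transcripts, the ratio of members to rest was 0.202 in Untreated A (95% interval 0.140 to 0.292, adjusted p = 1.743e-16, n = 2117 transcripts) and 0.261 in Untreated B (0.181 to 0.375, adjusted p = 1.042e-12). Adjusted p values here and below are Benjamini-Hochberg values over the 9 planned Wald tests, and they treat transcripts of a library, not cultures, as the units. The adjustment was made apart for each transcript set or setting, over fewer tests where a setting leaves a test out.

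Restricted to transcripts with the MANE Select stop and region (184 members, 1620 of the rest), members had 0.378% in Untreated A and 0.458% in Untreated B, and the rest 1.60% and 1.24%. The ratio was 0.236 in Untreated A (0.140 to 0.401, adjusted p = 3.764e-07, n = 1804) and 0.369 in Untreated B (0.206 to 0.659, adjusted p = 0.001368). HIST2H3C and HIST2H3A, to be read as a single measurement, both count in these values. In Untreated A they held 4570 and 4590 of the 32275 expected reads of the 184 members. In Untreated B they held 10766 and 10915 of 59617. A fit of this set without them was not run. The restriction to the MANE Select stop and region was added after the values had been seen. By contrast, the 116 members with another stop had only 0.175% and 0.0885%.

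In G418 A the members pooled to 1.93% (1487 reads of 77004 expected), which is 5.88 times their untreated mean of 0.328% ± 0.00540 (SD, n = 2). For the rest the value was 25.2%, 17.5 times an untreated mean of 1.44% ± 0.233. The rule used the G418 values, so the smaller rise of the members is fixed in part by their selection and was not tested. At the MANE Select stop and region the members pooled to 2.73%, 6.52 times their untreated mean. HIST2H3C and HIST2H3A count in the folds of both member sets. In G418 A they held 5617 and 5554 of the 41679 expected reads of the MANE Select set, and 176 and 168 of its 1136 reads. They held 3 and 3 of its 122 reads in Untreated A, and 12 and 10 of 273 in Untreated B. The folds were not calculated without this pair. Pooled readthrough of the members was therefore low in G418 A but above that of both untreated libraries.

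**Figure D4:**
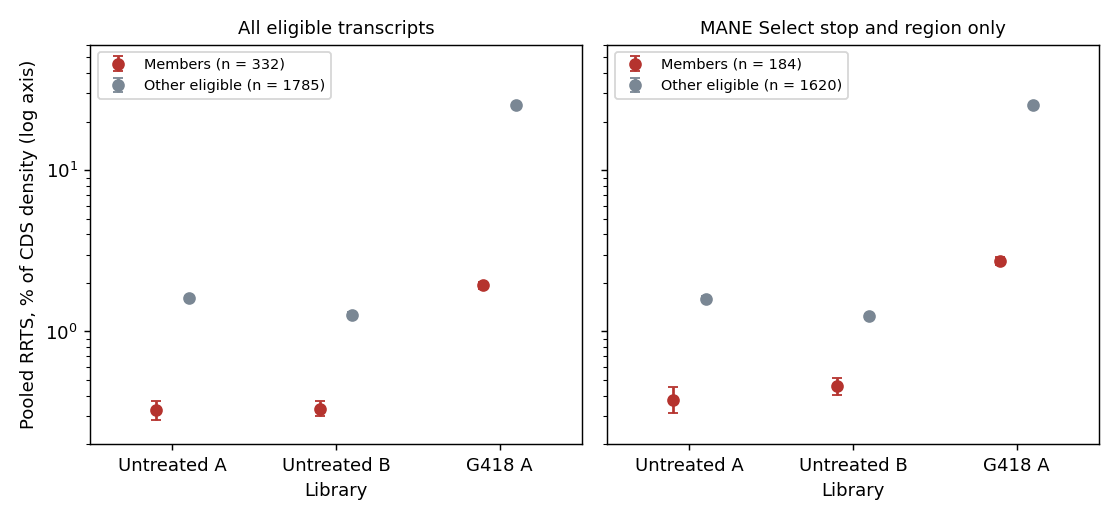
Pooled RRTS (percent of CDS density, log axis) of members and of the other eligible transcripts in each library, for all eligible transcripts (left) and for those with the MANE Select stop and region (right); whiskers are exact Poisson 95% intervals. Members lie at 0.324% and 0.332% in the untreated libraries and at 1.93% in G418 A, and the other transcripts at 1.60%, 1.27% and 25.2%.

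A few members were read through at a measurable rate without drug. MIF, which encodes macrophage migration inhibitory factor, had 15 and 23 reads without drug (2.26% and 1.58%) and 40 in G418 A (4.86%). SUB1, a transcriptional coactivator, had 6, 10 and 14 reads, or 1.62%, 2.06% and 4.02%, in a region other than that of MANE Select. MANF, a secreted neurotrophic factor of the endoplasmic reticulum, had 5, 8 and 26 reads, or 1.69%, 1.70% and 3.26%.

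In these 3 genes G418 A exceeded both untreated libraries, by a factor of less than 3 on the untreated mean (1.92% ± 0.479 for MIF, 1.84% ± 0.310 for SUB1, 1.69% ± 0.0128 for MANF, SD, n = 2). The interval in G418 A overlapped that of Untreated A in MIF, SUB1 and MANF, and also that of Untreated B in SUB1 and MANF. TARDBP, which encodes the RNA-binding protein TDP-43, had a lower value in G418 A, with 4 reads (1.69%), 4 reads (1.16%) and 2 reads (0.666%). Its intervals overlapped (0.460 to 4.32, 0.317 to 2.98 and 0.0806 to 2.405), and its stop is not that of MANE Select. CHD3, a chromatin remodeller, had the highest untreated RRTS among members with at least 3 reads in both untreated libraries. It had 4 reads (10.1%), 8 reads (13.1%) and 1 read of 36.9 expected in G418 A (2.71%, interval 0.0686 to 15.1), so that its G418 value was not distinguishable from its untreated values at this depth.

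The stop codons of the members differed from those of the rest, which the rule had not used. UAA ended 158 of 332 members (47.6%, Wilson 95% interval 42.3 to 53.0) and 27% of the rest (25 to 29.1). UGA ended 106 members (31.9%, 27.1 to 37.1) and 51.5% of the rest (49.2 to 53.9), and UAG 68 members (20.5%) and 21.5% of the rest. In the logistic regression with stop codon and +4 nucleotide, the odds of membership were 2.95 times as high for UAA as for UGA (2.24 to 3.88, adjusted p = 5.224e-14, n = 2117) and 1.63 times as high for UAG as for UGA (1.17 to 2.27, adjusted p = 0.005489). The call for UAG was lost with RRTS below 0.02 (adjusted p = 0.159, n = 2117), without genes that have another annotated stop (adjusted p = 0.1494, n = 1091) and with intervals wholly on one side of 5% (adjusted p = 0.4662, n = 1525). With the MANE Select stop and region alone, UAA ended 114 of 184 members (62.0%) and UGA 40 (21.7%), and the odds ratio of UAA over UGA was 5.85 (3.97 to 8.62, adjusted p = 3.881e-18, n = 1804).

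At the +4 position C was less frequent among members. It followed the stop codon of 48 members (14.5%, 11.1 to 18.7) and of 21.6% of the rest (19.7 to 23.5). Relative to C, the odds of membership were 1.83 times as high with G (1.27 to 2.64, adjusted p = 0.002073, n = 2117) and 1.82 times with U (1.18 to 2.83, adjusted p = 0.009134). With A the ratio was 1.48 (1.02 to 2.13, adjusted p = 0.04196, n = 2117), and this call was lost under 7 of the 15 alternative settings tried for it, among them leaving out Untreated B (adjusted p = 0.0626). Under 1 of the 7 the ratio turned to 0.974. With RRTS below 0.02, or with intervals wholly on one side of 5%, no +4 nucleotide passed the test, and U did not pass without genes that have another annotated stop.

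Read as 4-nt signals, the share of eligible transcripts that were members was 29.3% for UAAG (48 of 164, interval 22.8 to 36.6), 28% for UAGU (14 of 50) and 25.8% for UAAA (65 of 252). It was 8.03% for UGAA (24 of 299, 5.45 to 11.7) and 8.56% for UGAC (16 of 187, 5.34 to 13.5). With the MANE Select stop and region, 37 of 139 UAAG stops (26.6%) and 4 of 160 UGAC stops (2.5%, 0.976 to 6.25) were members. At the nucleotide after +4, C was found in 35.7% of members (30.7 to 41.1) and 26.5% of the rest (24.5 to 28.6), which is given as a description without a test.

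The 5 UGAC members with most expected reads were MYL6, UBE2A, RBM3, SUMF2 and PPP1CC. All 5 had 0 readthrough reads in both untreated libraries and a listed stop other than the MANE Select stop. In G418 A, MYL6, a myosin light chain gene, had 3 reads of 941 expected (0.319%). The ubiquitin-conjugating enzyme gene UBE2A and the cold-inducible RNA-binding protein gene RBM3 had 0 reads, with limits of 0.833% and 0.928%. SUMF2 had 2 reads (1.18%) and the phosphatase gene PPP1CC 1 read (0.667%). The listed stop of MYL6 was at chr12:56162320-56162322 and its MANE Select stop at chr12:56160652-56160654, both on the plus strand and both of the signal UGAC.
MYL6 listed: cacaatccccctgccTGACagccacaggag
MYL6 MANE Select: catatcctgtcggggTGACgggcccatggg

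GC content after the stop codon gave no call over all eligible transcripts. The 12 nt after the stop held 6.4 G or C on average in 319 members and 6.6 in 1750 of the rest, and the odds ratio per G or C was 1.03 (0.966 to 1.10, adjusted p = 0.3713, n = 2069). With the MANE Select stop and region it was 1.16 (1.07 to 1.27, adjusted p = 0.001138, n = 1804), although the means were 6.59 for members and 6.59 for the rest. The stop codon and +4 nucleotide were terms of that fit, so the ratio and the bare means need not move together. The +4 nucleotide is itself among the 12 nt counted, so these terms overlap. In this set the share of members was 8.76% with 0 to 4 G or C, 11.85% with 5 to 7 and 9.09% with 8 to 12. It thus did not rise steadily with GC content. Genes with more than 1 annotated stop codon made up 66.8% of members (213 of 319) and 43.7% of the rest (765 of 1750), with an odds ratio of 2.74 (2.12 to 3.54, adjusted p = 5.229e-14, n = 2069). With the MANE Select stop and region this ratio was 1.49 (1.08 to 2.04, adjusted p = 0.01401, n = 1804).

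The readthrough region had a median length of 94.5 nt in members and 99.0 nt in the rest, and the trimmed 3′UTR of 591 nt and 702 nt. No in-frame stop codon followed in the 3′UTR of 26 members (7.83%) and 103 of the rest (5.77%). These lengths are descriptions, since length sets the number of expected reads on which eligibility rested.

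The members were also counted in 16 gene lists. Counts are set beside the 15.7% of all eligible transcripts that were members, with no test. The cytosolic ribosomal proteins had 18 members among 60 eligible genes (30%). UAA ended 13 of these 18 members and 37 of the 60 eligible genes, so it was common in the whole list. The median RRTS of the 60 in G418 A was 11.6% against 18.5% over all eligible transcripts. At the MANE Select stop and region 9 of 45 ribosomal protein genes were members (20%, against 10.2% of all such transcripts). The list count fell to 10 with RRTS below 0.02, 7 with a region of at least 60 nt and 5 without genes that have another annotated stop. Among these was RPS18, of the small subunit, with 2, 2 and 16 reads in Untreated A, Untreated B and G418 A (0.485%, 0.313% and 2.36%).

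Subunits of the respiratory chain and ATP synthase had 13 members among 57 (22.8%), but at the MANE Select stop and region 4 of 41 (9.76%), close to the 10.2% of all such transcripts. ATP5F1E, the epsilon subunit of ATP synthase, had 0 reads in all 3 libraries with a limit of 0.571% in G418 A, and its listed region differed from that of MANE Select. ATP5PF, another ATP synthase subunit, also had 0 reads in all 3, with a limit of 0.650% at a stop that was not that of MANE Select. UQCR11, of complex III, had 1, 0 and 19 reads (0.257%, 0 and 3.68%), also with a region other than that of MANE Select.

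The replication-dependent histones had 7 members among 23 (30.4%), the glycolytic enzymes 4 of 12 (33.3%) and the chaperones and foldases of the endoplasmic reticulum 5 of 16 (31.2%). At the MANE Select stop and region the counts were 4 of 19 (21%), 2 of 10 (20%) and 2 of 13 (15.4%), against 10.2% of all such transcripts. The histone count includes both HIST2H3C and HIST2H3A. For histones the expected reads rest on annotated regions, with the limit given above for the HIST2H3 genes. Glycolytic members were GAPDH, ENO1, LDHA and PGK1. GAPDH had 0, 4 and 34 reads (0, 0.144% and 2.02%), with a readthrough region other than that of MANE Select. LDHA had 0, 0 and 9 reads (3.76% in G418 A) at a stop that was not that of MANE Select, and PGK1 had 0 reads in all 3, of 41.0 expected in G418 A. Among the chaperones, HSP90B1 had 3, 5 and 31 reads (0.923%, 1.04% and 4.63%).

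The other lists lay nearer to or below the share of all eligible transcripts. Mitochondrial ribosomal proteins had 4 of 40 (10.0%), splicing factors and hnRNPs 7 of 45 (15.6%), chromatin and high mobility group proteins 3 of 19 (15.8%) and translation initiation factors 3 of 24 (12.5%). Proteasome subunits had 2 of 22, and cytosolic heat shock proteins and chaperonin 1 of 13. Elongation factors had 1 of 8, actins and tubulins 1 of 8, aminoacyl-tRNA synthetases 1 of 9, termination, recycling and rescue factors 1 of 5, and selenoproteins 0 of 5. The rescue factor list was represented by DENR, a recycling factor, with 0 reads in all 3 libraries of 34.0 expected in G418 A, at a stop other than that of MANE Select. HMGN2, a nucleosome-binding protein and the chromatin member with most expected reads, had 18, 9 and 112 reads (0.784%, 0.234% and 4.04%).

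**Figure D5:**
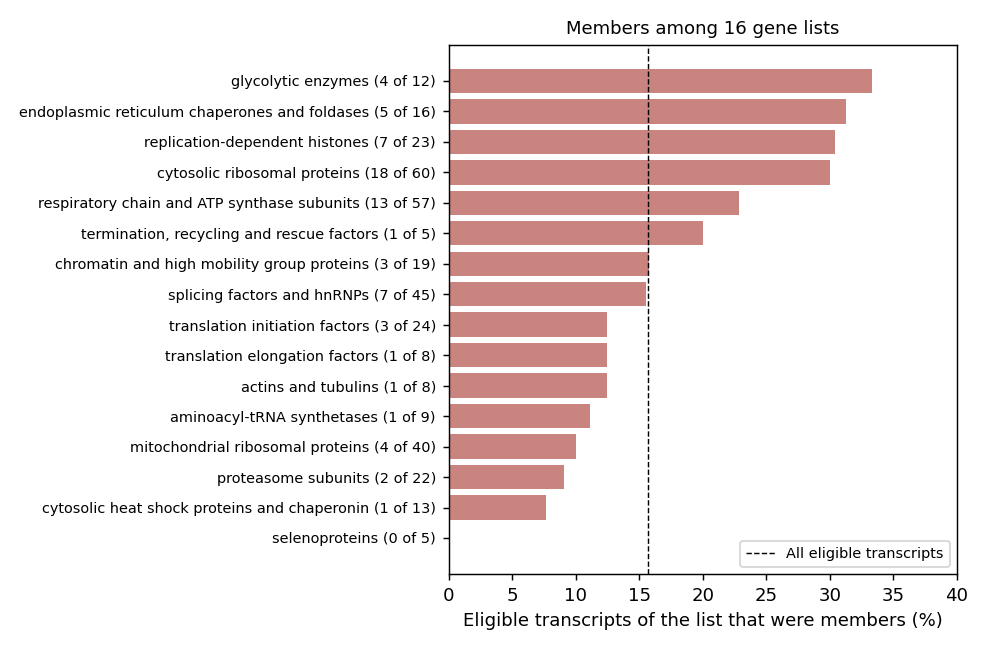
Share of the eligible transcripts of each of 16 gene lists that were members (bars, percent; counts in brackets), with the share over all eligible transcripts as a dashed line. Glycolytic enzymes (33.3%) and the endoplasmic reticulum list (31.2%) stand highest, on 12 and 16 genes.

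CDS density was compared between G418 A and the mean of the untreated libraries to see whether members also changed in ribosome occupancy of the coding sequence. A change in density cannot separate more mRNA from more ribosomes per mRNA. A log2 change of at least 1 was found in 7 of 332 members upwards (2.11%, against 1.06% of 5680 transcripts) and in 0 members downwards (against 0.088%). The median log2 change was 0.09 in members and 0.07 in the 5680, with no test, since the drug had 1 library. MANF went from 101 RPM (reads scaled to a common library total) in Untreated A and 98.5 in Untreated B to 220 in G418 A (log2 change 1.14). MCRS1 went from 20.5 and 29.2 to 55.4 RPM (1.16) and the lipid synthesis enzyme gene AGPAT1 from 33.1 and 43.7 to 82.7 RPM (1.11). The lowest members were HIST1H2AC, with 428 and 565 RPM untreated and 285 in G418 A (-0.80), RNF5 (-0.80) and HIST1H2BE (-0.75).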

How the data were processed

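Ribosome-protected fragments were analysed in 2 untreated libraries and 1 G418 library, grouped by the treatment label. Per the study's methods and the submitters' notes, the authors aligned reads with STAR to hg38, kept a primary alignment for each read and assigned it to 1 transcript per gene. For each transcript the authors deposited RPM values, whole-number read counts, RPKM densities (RPM per kilobase, ends of the CDS left out) and ratios of densities such as RRTS. Reads were recovered by dividing RPM by the value of 1 read, and RRTS is the deposited readthrough density over the deposited CDS density. The scale corresponded to 5857230, 9477972 and 7216039 reads in Untreated A, Untreated B and G418 A.

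Members, gene lists and tests were chosen with earlier results of these data known. Named genes were, among members, the 20 with most expected reads, the 5 of these orders with 0 reads or the signal UGAC, the 5 highest untreated RRTS with at least 3 reads in both untreated libraries, 3 on each side of the RRTS limit, the 3 largest rises and falls of CDS density, and up to 4 per gene list. DYNLT1 was chosen for its sequence after values were seen, and 1 other comparison stop codon is not reported here.

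Stop codons were matched by transcript identifier to GENCODE 44 (GRCh38), a later release than the study's on the same build. The 4-nt signal was the same for 2069 of 2117 eligible transcripts (97.7%), and the other transcripts were left out of the MANE Select, GC and annotated-stop comparisons. Quasi-Poisson and logistic regressions were run in statsmodels 0.14.6 and intervals in scipy 1.17.1. On simulated reads with gamma-distributed variation between transcripts and no difference, the quasi-Poisson fit first designed, with 1 common dispersion, gave p under 0.05 in 39.5% of 200 runs. Sandwich errors over transcripts gave 9.5% and were used instead, so these p-values are somewhat too small. Thresholds, minimums, transcript sets and model terms were varied one at a time. Wilson and exact Poisson intervals are at 95%. Replicate letters are shared by Untreated A and G418 A alone.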

Additional observations from a re-analysis of the deposited data

Results flagged for a closer look

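Reads in the 3′UTR past the readthrough region, which no comparison of the report used, were above the untreated level in members. Over the 284 members with at least 30 nt past the next in-frame stop codon, their density was 0.274% of CDS density with G418, against 0.0964% (Untreated A) and 0.0782% (Untreated B). That is 3.14 times the untreated mean, and the same measure was 6.05 times the untreated mean for 1576 transcripts of the rest (0.838% in G418 A). In 99 of the 284 members (34.9%) and 308 of the 1576 transcripts of the rest (19.5%) more reads lay past the region than in it, a count that the rule itself raises, since members were selected for few reads in the region. RBM3 had 0 reads in the region in every library, and 13, 12 and 82 reads past it in Untreated A, Untreated B and G418 A. PSMD11, a proteasome subunit gene, had 1, 7 and 65 reads past the region and PRC1, a spindle midzone protein gene named after its values were seen, 30, 19 and 62. With 1 G418 library the rise was not tested.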

How the results depend on the processing

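The lower untreated RRTS of members and the higher odds with UAA over UGA, with another annotated stop codon and with a stop other than MANE Select kept their direction and their side of 0.05 under every alternative run for them. The ratio of members to rest ranged from 0.0947 to 0.294 in Untreated A and from 0.0941 to 0.369 in Untreated B, and the odds ratio of UAA over UGA from 1.99 to 5.85.

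The number of members moved with the rule, to 629 with RRTS below 0.1, 189 below 0.02 and 205 with at least 60 expected reads. It was 106 without genes that have another annotated stop, and, both added after the data were seen, 184 with the MANE Select stop and region and 85 with an interval wholly below 0.05 (against rest wholly above). Leaving out Untreated A or Untreated B gave 337 and 328 members. Members with a CDS rise numbered 1 below 0.02, 2 with a mean CDS count of at least 500 and 1 with an interval wholly below 0.05.

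With RRTS below 0.02 the odds ratios no longer passed for UAG (1.42), A (1.08), G (1.28) and U (1.37), and GC content turned to 0.938. With intervals wholly on one side of 0.05 they did not pass for UAG (1.34), G (1.38) and U (1.85), and A turned to 0.974. Without genes with another annotated stop they did not pass for UAG (1.63), A (2.25) and U (2.43). A over C also failed with at least 60 expected reads (1.42), a mean CDS count of at least 500 (1.46) or no minimum (1.38), and lay between 1.44 and 1.46 without an untreated replicate. GC content passed with RRTS below 0.1 (1.09), without genes with another annotated stop (1.22) and with the MANE Select stop and region (1.16). For the settings that keep fewer transcripts, fewer members were tested; the cause was not tested otherwise. Gene list counts moved too. Leaving out multi-copy genes takes out every ribosomal protein and histone by construction (0 members each). The respiratory chain list ranged from 4 to 24, the endoplasmic reticulum list from 2 to 7 and the glycolytic enzymes from 1 to 6.

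No paired analysis was possible because the groups share a single replicate letter. The depth, 30 expected reads at the least, and the single G418 library limit what can be said of single stop codons.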

Other observations

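In 5 of 332 members RRTS in G418 A was below that of both untreated libraries, which held for 1 of 1785 transcripts of the rest. They were chosen after their values were seen, on a measure that the rule lowers. Besides TARDBP, CHD3 and MRPL52 they were ZNF24, a zinc finger gene, and H2AFV, a histone variant gene. ZNF24 had 2 reads in Untreated A (5.80%), 1 in Untreated B (2.01%) and 0 of 38.0 expected in G418 A. H2AFV had 1 read (2.75%), 3 reads (4.65%) and 0 of 62.1 expected. All 5 rest on at most 8 reads in a library.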
